A study of Homo sapiens with 4 samples.

Results

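The response of U87 cells to 2 µM crizotinib for 24 hours was described across all genes, as the value on the treated array minus the value on the array of its vehicle control. Every feature with 1 gene symbol was taken, which gave 22458 of the 23786 features measured. U87 is an established human glioblastoma line, grown here with 10% serum in DMEM. The 24h vehicle cells received no drug for 24 hours, and the 24h crizotinib cells received 2 µM. The other arrays, used only as a yardstick, came from cells labelled crizotinib-sensitive and crizotinib-resistant. They were read from the design and treatment texts as a control kept 21 days without drug and a culture kept 21 days in 1 µM crizotinib. There was 1 array per condition and 4 arrays in all, so no difference has a replicate check and every comparison is one of size, without a test. Precision is limited by this number of arrays.

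Crizotinib is an oral drug that blocks the kinase activity of the receptors MET, ALK and ROS1, and it is used in lung cancers that carry ALK or ROS1 rearrangements. MET is the receptor of hepatocyte growth factor, HGF, and U87 cells are known to make both, so that the receptor can be stimulated by the cells' own ligand. Signals from MET run through the RAS and ERK kinases and through phosphoinositide 3-kinase, which control immediate transcription factors, cell cycle entry, ribosome production and invasion.

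Values are log2 expression after RMA, so a difference of 1 is 2-fold. A gene past the level filter reached 4.96, the median of all values, on at least 1 array of the 24-hour pair. It was counted as higher or lower when the arrays of the pair also lay at least 2-fold apart. A gene below 4.96 on 1 array of the pair passes only through the other, and can be counted in that direction alone. A gene called expressed below had a mean over the 4 arrays that reached that median, and family medians were taken over expressed members. Bulk RNA cannot separate fewer cells that express a gene from less RNA per cell.

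The label was checked against marker genes. Of 12 glioma and astrocyte markers, 8 reached the median of all values on at least 1 array, among them VIM at 12.26 and CD44 at 11.26 on the vehicle array. GFAP, S100B, SOX2 and OLIG2 stayed below it on every array. None of the 4 leukocyte markers and neither of the 2 oligodendrocyte markers measured reached it. KDR among the endothelial markers and SNAP25 and SYT1 among the neuronal ones did. EPCAM among the epithelial ones did so on the 24-hour crizotinib array, at 5.02. All 5 fibroblast markers reached it on at least 1 array, 3 of them on the vehicle array. DCN and PDGFRA reached it only on the 21-day crizotinib array. The summed level of the fibroblast markers was 30.9 on the vehicle array and 33.7 on the crizotinib array. The part of cell composition in the results was not tested.

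Among 11897 genes that passed the filter, crizotinib gave a value 2-fold or more above vehicle for 341 (2.87%) and 2-fold or more below it for 253 (2.13%). Together that is 594 genes, or 4.99%. At least 4-fold differences were found for 40 genes in the higher direction (0.336%) and 14 in the lower (0.118%). By the same rule the 2 arrays without drug, the 21-day control and the 24-hour vehicle, differed in 352 of 11824 genes (2.98%), with 195 (1.65%) above and 157 (1.33%) below vehicle in the 21-day control. The 21-day drug culture differed from its control in 8.09% of genes, 3.98% higher and 4.11% lower. The standard deviation of the difference over 11364 expressed genes was 0.48 for crizotinib against vehicle and 0.41 between the arrays without drug. In the central 90% of genes the drug-free difference ran from -0.57 to 0.61, which sets the scale against which a single gene can be read. This drug-free comparison shares the 24-hour vehicle array with the crizotinib comparison, so the values are given side by side only. The 21-day pair shares no array with the 24-hour pair.

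Most of the counted genes also stood apart from the 21-day control, against which 5.44% of all genes past the filter were higher on the 24-hour crizotinib array and 5.29% lower, or 10.7% in all. The 24-hour crizotinib array was at least 2-fold above both arrays without drug for 258 of the 341 higher genes (75.7%). It was at least 2-fold below both for 206 of the 253 lower genes (81.4%). The same 24-hour crizotinib array enters both differences, so these shares are not an independent check. Of the higher genes 10 (2.93%) were not above the 21-day control, and of the lower genes 3 (1.19%) were not below it. In 53 genes counted as higher and 15 counted as lower, the arrays without drug were themselves at least 2-fold apart. Their distance was at least as large as the crizotinib difference in 29 and 7 genes. Genes at low levels were counted as higher more often than as lower. In the lowest of 6 groups by mean level 5.75% were higher and 1.71% lower, and in the highest 0.958% and 1.56%. By chromosome, the median difference of expressed coding genes in the 24-hour pair lay between -0.09 on chromosome 19 and 0.11 on chromosome X. Between the arrays without drug it reached -0.36 on chromosome 22, -0.29 on chromosome 18 and 0.23 on chromosome 11.

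**Figure D1:**
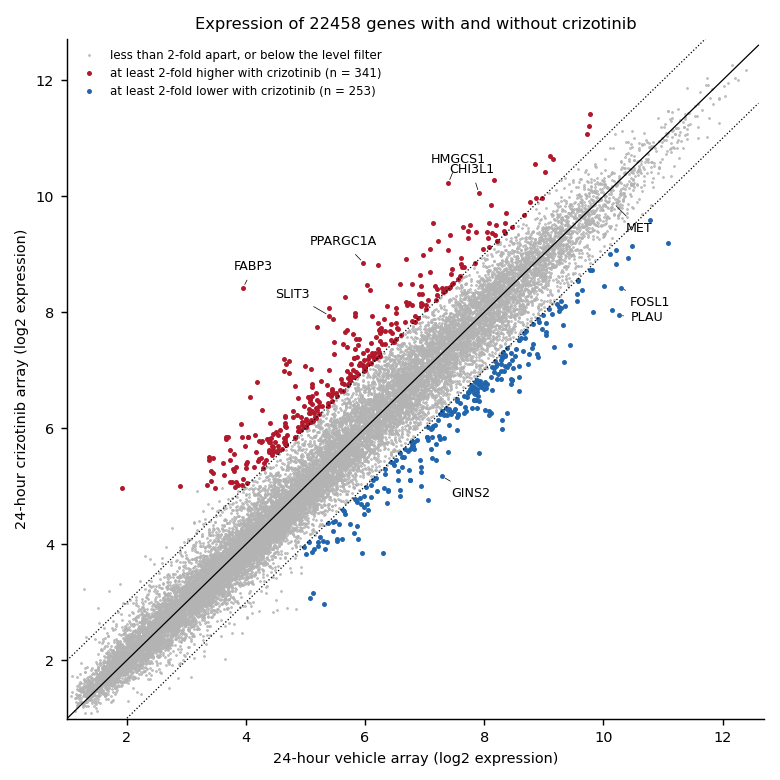
Log2 expression of 22458 genes on the 24-hour vehicle array (horizontal) and the 24-hour crizotinib array (vertical), 1 array each. Dotted lines mark 2-fold, red points are the 341 genes counted as higher and blue points the 253 counted as lower, and most genes lie close to the line of equal values.

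Promoters are shown for 5 genes of families described below and for TCP11L2, which belongs to none, because each holds a motif that was counted. Each is 250 bases before and 50 after the gene's start in RefSeq on GRCh38.p14, 5′ to 3′ on the gene's strand, and capitals mark the motif named. A match is only a match of letters. GINS2, a subunit of the helicase complex that opens DNA for replication, lies on the minus strand at chr16:85688905-85689204. Capitals mark a CCAAT box and an E2F-type motif. SPC25, a kinetochore protein, lies on the minus strand at chr2:168890381-168890680, with CHR motifs and CCAAT boxes in capitals. H2AC4, a replication-dependent histone H2A, lies on the minus strand at chr6:26033569-26033868, with CCAAT boxes and a TATA box. NOC2L, a nucleolar factor, lies on the minus strand at chr1:959207-959506, with an ETS-type motif. HMGCS1, an early enzyme of the mevalonate pathway, lies on the minus strand at chr5:43313363-43313662, with CCAAT boxes and a TATA box. TCP11L2 lies on the plus strand at chr12:106302483-106302782, with a FOXO-type motif.
GINS2: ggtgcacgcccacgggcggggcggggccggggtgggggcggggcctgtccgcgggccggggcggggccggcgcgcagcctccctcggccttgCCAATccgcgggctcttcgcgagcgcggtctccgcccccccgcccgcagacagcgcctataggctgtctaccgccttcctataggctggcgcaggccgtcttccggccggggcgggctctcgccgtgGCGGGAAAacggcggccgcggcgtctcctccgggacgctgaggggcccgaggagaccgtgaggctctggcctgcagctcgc
SPC25: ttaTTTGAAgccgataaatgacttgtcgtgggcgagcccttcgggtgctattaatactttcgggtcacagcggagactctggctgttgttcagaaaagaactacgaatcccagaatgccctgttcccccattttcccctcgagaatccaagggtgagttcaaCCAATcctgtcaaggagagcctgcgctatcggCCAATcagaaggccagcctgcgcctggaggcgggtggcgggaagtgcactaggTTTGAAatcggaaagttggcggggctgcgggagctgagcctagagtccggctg
H2AC4: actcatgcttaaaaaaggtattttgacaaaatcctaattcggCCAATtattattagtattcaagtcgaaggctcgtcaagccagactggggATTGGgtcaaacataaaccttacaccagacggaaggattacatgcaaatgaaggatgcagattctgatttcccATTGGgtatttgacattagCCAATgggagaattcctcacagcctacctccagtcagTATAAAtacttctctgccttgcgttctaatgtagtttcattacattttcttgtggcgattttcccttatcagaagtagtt
NOC2L: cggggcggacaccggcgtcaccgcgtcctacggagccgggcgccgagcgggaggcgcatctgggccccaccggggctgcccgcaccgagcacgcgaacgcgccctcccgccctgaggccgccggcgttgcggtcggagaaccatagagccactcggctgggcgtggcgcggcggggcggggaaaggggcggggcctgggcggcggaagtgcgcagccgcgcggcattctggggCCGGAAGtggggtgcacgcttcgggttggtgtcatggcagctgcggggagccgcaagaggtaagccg
HMGCS1: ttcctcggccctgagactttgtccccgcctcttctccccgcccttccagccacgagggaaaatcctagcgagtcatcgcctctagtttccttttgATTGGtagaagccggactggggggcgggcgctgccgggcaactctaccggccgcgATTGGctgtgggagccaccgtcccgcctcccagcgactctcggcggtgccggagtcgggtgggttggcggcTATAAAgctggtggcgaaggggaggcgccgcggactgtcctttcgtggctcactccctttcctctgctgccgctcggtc
TCP11L2: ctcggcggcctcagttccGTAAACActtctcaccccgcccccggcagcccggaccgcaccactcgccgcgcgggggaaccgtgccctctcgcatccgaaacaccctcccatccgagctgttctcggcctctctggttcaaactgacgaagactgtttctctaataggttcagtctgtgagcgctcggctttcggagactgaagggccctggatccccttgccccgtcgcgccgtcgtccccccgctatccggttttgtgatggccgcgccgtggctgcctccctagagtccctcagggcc

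A promoter of this kind was matched for 14378 coding genes, of which 9014 were past the level filter, 247 counted as higher and 169 as lower. Motifs were searched on both strands, and none of the strings holds another. The E2F-type motif, TTTCCCGC or TTTGGCGC, was in 25 of the 169 promoters of lower genes (14.8%), in 3 of the 247 of higher genes (1.21%), and in 3.82% of those past the filter. Without members of the cell cycle, repair and chromatin families it was in 10 of 109 promoters of lower genes (9.17%). TTTGAA, the cell cycle homology region or CHR, was in 21.9% of lower, 10.5% of higher and 10.1% of all promoters past the filter. CCAAT, bound by NF-Y, was in 54.4% of lower, 44.1% of higher and 36.7% of those past the filter. Thus all of these strings were more frequent in promoters of lower genes than in the 9014.

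Of the other strings, TATAAA and the CRE were also more frequent in lower genes than in those past the filter. Without the cell cycle, repair and chromatin families neither was, and the CRE was in 1.83% of lower genes. In lower genes the rest differed less or in the other direction. The ETS-type CCGGAAG was in 6.88% of promoters of higher genes, 17.2% of lower genes and 19.8% of those past the filter. TATAAA was in 8.91% of higher, 11.2% of lower and 5.57% of those past the filter, and in 5.50% of lower genes without the cell cycle, repair and chromatin families. The sterol regulatory element TCACNCCAC was in 1.21%, 1.18% and 1.09%, so its share was nearly the same in each. The AP-1 motif TGANTCA was in 5.26% of higher, 5.33% of lower and 4.48% of those past the filter, the CRE TGACGTCA in 2.43%, 5.92% and 3.41%. The FOXO-type GTAAACA was in 3.64%, 2.37% and 2.29%, and TCACGTGA, the E-box of many lysosomal genes, in 1.21%, 1.18% and 2.16%. In all 27305 promoters of the table the shares were 2.31% for the E2F-type motif, 15.4% for CHR, 35.7% for CCAAT and 10.7% for the ETS-type motif. TATAAA was in 3264 of the 27305, a larger share than in the lower genes. In the same promoters the sterol element held 1.15%, AP-1 7.76%, CRE 1.98%, the FOXO-type motif 3.41% and TCACGTGA 1.04%.

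The families differed in the strings they hold. The E2F-type motif was in 13 of 30 promoters of replication genes past the filter. CHR was in 13 of 32 kinetochore promoters and in 15 of 40 histone promoters, but in none of the 30 of replication genes. Of 40 histone promoters 34 held CCAAT and 27 held TATAAA. The ETS-type motif was in 27 of 62 promoters of ribosome biogenesis factors, and CCAAT was in 11 of 16 of the mevalonate pathway and 21 of 30 of replication genes. The sterol element was in 0 of the 16 of the mevalonate pathway.

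**Figure D2:**
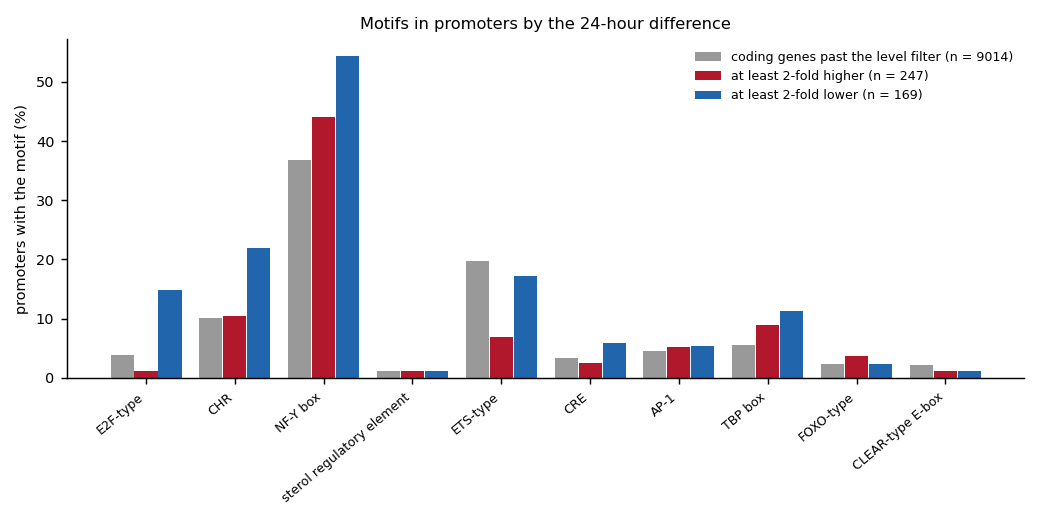
Share of promoters that hold each motif, in percent, for coding genes past the level filter (grey, 9014), at least 2-fold higher with crizotinib (red, 247) and at least 2-fold lower (blue, 169); NF-Y box is the string CCAAT and TBP box the string TATAAA. The E2F-type bar is 14.8% for lower genes against 3.82% for all, and the ETS-type bar 6.88% for higher genes against 19.8%.

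The genes of 202 protein and RNA families were then described, 194 of which had at least 5 expressed members. The median of the 24-hour difference was at or above 0.3 in 12 of these families and at or below -0.3 in 20. It lay within 0.1 of 0 in 76 families, and 66 had no member counted as higher or lower. Between the arrays without drug, 4 families had a median at or above 0.3 and 6 at or below -0.3. Over all 11364 expressed genes the median was 0.00 for crizotinib against vehicle and 0.03 between the arrays without drug. The families hold 350 of the 594 genes counted, and the other 244 belong to none. Counts within a family can be set against the shares over all 11897 genes past the filter, 2.87% higher and 2.13% lower.

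**Figure D3:**
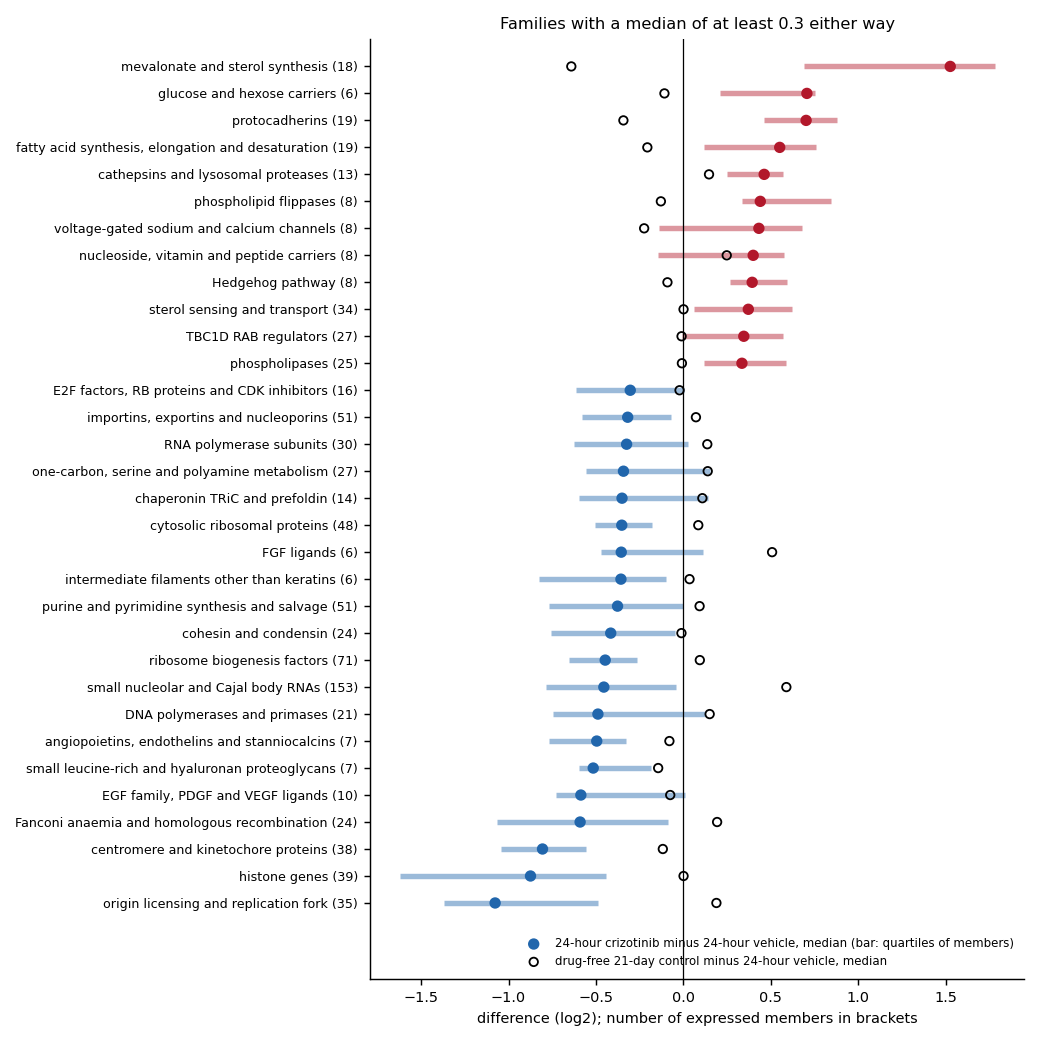
Median difference (log2) of expressed members for the 32 families with a median of at least 0.3 either way, with the number of members in brackets. Filled points show 24-hour crizotinib minus vehicle with bars for the quartiles of members, open points the drug-free 21-day control minus the 24-hour vehicle; replication genes sit lowest at -1.08 and the mevalonate pathway highest at 1.53.

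The drug's named targets differed little. MET was 10.17 on the vehicle array, 9.88 on the crizotinib array, 10.32 in the 21-day control and 9.94 in the 21-day drug culture. HGF, its ligand, was 7.47, 6.80, 7.23 and 6.20 on the same arrays in that order. ALK stayed below the median of all values on every array, at 4.52 and 4.60 in the 24-hour pair. ROS1 was 4.65 with vehicle and 5.04 with crizotinib, but 6.79 in the 21-day control, so the drug-free arrays lay further apart than the treated pair. Of 58 receptor tyrosine kinases, 26 were past the filter, 2 were counted as higher and 1 as lower, and the median of 25 expressed members was 0.03.

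The 3 receptor kinases past 2-fold were PDGFRB, DDR1 and EPHA2. PDGFRB, a receptor of platelet-derived growth factor, was 6.68 with vehicle, 8.17 with crizotinib and 5.72 and 6.71 in the 21-day control and drug cultures. DDR1, a collagen receptor, was higher by 1.08. EPHA2, an ephrin receptor, was lower by 1.19, and the ephrin ligand EFNB2 by 1.04. The non-receptor kinase JAK2, which acts below cytokine receptors, was 1.08 higher.

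Growth factor ligands differed by family. Of 18 EGF, PDGF and VEGF ligands 10 were past the filter and 1 was counted as lower, and the median was -0.59, with 7 of 10 below 0, or -0.19 over all 18. The ligands of the TGF-beta and BMP family had a median of 0.14 with 9 of 13 above 0, and insulin-like growth factors and their binding proteins one of 0.02. HBEGF, a ligand of the EGF receptor, was 7.32 with vehicle and 5.83 with crizotinib, against 7.07 and 7.56 in the 21-day cultures. The 24-hour crizotinib array was the lowest of the 4. In the Wnt ligands, 8 of 19 were past the filter and 2 of these were counted as lower, WNT7B by 1.12 and WNT5A by 1.03. All 4 expressed members were below 0. Of 25 FGF ligands none passed 2-fold, and the median of 6 expressed was -0.36 against 0.51 between the arrays without drug. Over all 25 the median of the 24-hour difference was -0.06.

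Of 40 Wnt receptors and modulators 18 were past the filter, and 2 of these were counted as higher. SFRP2, a secreted antagonist, was 5.82 with vehicle and 7.94 with crizotinib. RSPO3, which enhances Wnt signals, was 4.66 with vehicle and 6.20 with crizotinib, on arrays without drug that lay 1.22 apart. None of the 17 genes of the Hedgehog pathway passed 2-fold, but 7 of its 8 expressed members were above 0, with a median of 0.39, or 0.08 over all 17. The Notch pathway, with a median of 0.07 over 18 members, and receptors and SMADs of TGF-beta, at 0.02 over 24, lay near 0.

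In the RAS and ERK branch, the MAP kinase cascade kinases had a median of 0.00 over 42 members, with 21 above and 21 below 0. Only MAP2K6 and RPS6KA2 passed 2-fold, both higher. MAP2K6, which activates p38, was 4.79 with vehicle and 6.30 with crizotinib, while the drug-free arrays differed by more, at -2.11. DUSP6, the phosphatase that ERK activity keeps transcribed and that inactivates ERK, was 8.28 with vehicle, 7.11 with crizotinib, 8.83 in the 21-day control and 10.13 in the 21-day drug culture. It was thus the lowest of the 4 arrays with 2 µM at 24 hours and the highest with 1 µM at 21 days.

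In the phosphoinositide 3-kinase branch, 30 of 40 expressed lipid kinases and phosphatases were above 0, with a median of 0.21. PIK3R3, a regulatory subunit, was 6.23 with vehicle, 7.69 with crizotinib and 5.42 and 6.20 in the 21-day cultures. PIK3IP1, a membrane protein that inhibits the kinase, was 4.43 with vehicle and 5.58 with crizotinib. Of 40 AKT, mTOR and AMPK components 36 were past the filter, and 3 of these were counted as higher and 1 as lower. Of all genes past it 2.87% were higher and 2.13% lower. SESN3 was 1.92 and DDIT4 1.28 higher, and both are known to restrain mTOR complex 1. For DDIT4 the drug-free arrays differed by more, at -1.37. EIF4EBP1, the repressor of cap-dependent translation that mTOR inactivates, was 8.65 with vehicle and 7.33 with crizotinib. CBLB, a ubiquitin ligase that acts on activated receptor kinases, was 7.72 with vehicle and 9.28 with crizotinib, above both drug-free arrays.

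In signalling through G proteins, 15 of 22 G protein subunits were below 0, with a median of -0.18, and 8 of 10 RGS proteins, with -0.11. Protein kinase A, its anchors and CREB factors had 21 of 30 above 0 and a median of 0.24. RGS4, which switches off G alpha subunits, was 6.74 with vehicle and 5.28 with crizotinib, against 7.11 and 6.77 in the 21-day cultures. ADCY8, an adenylyl cyclase stimulated by calcium, was 7.65 with vehicle and 9.46 with crizotinib, above both drug-free arrays. The lipid receptor S1PR1 was 3.74 with vehicle and 5.62 with crizotinib, and LPAR1 was 1.10 higher. The serotonin receptor HTR2A was 1.01 higher, while its drug-free arrays differed by more, at -1.66. The median of the 22 expressed amine, peptide and lipid receptors was -0.17.

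**Figure D4:**
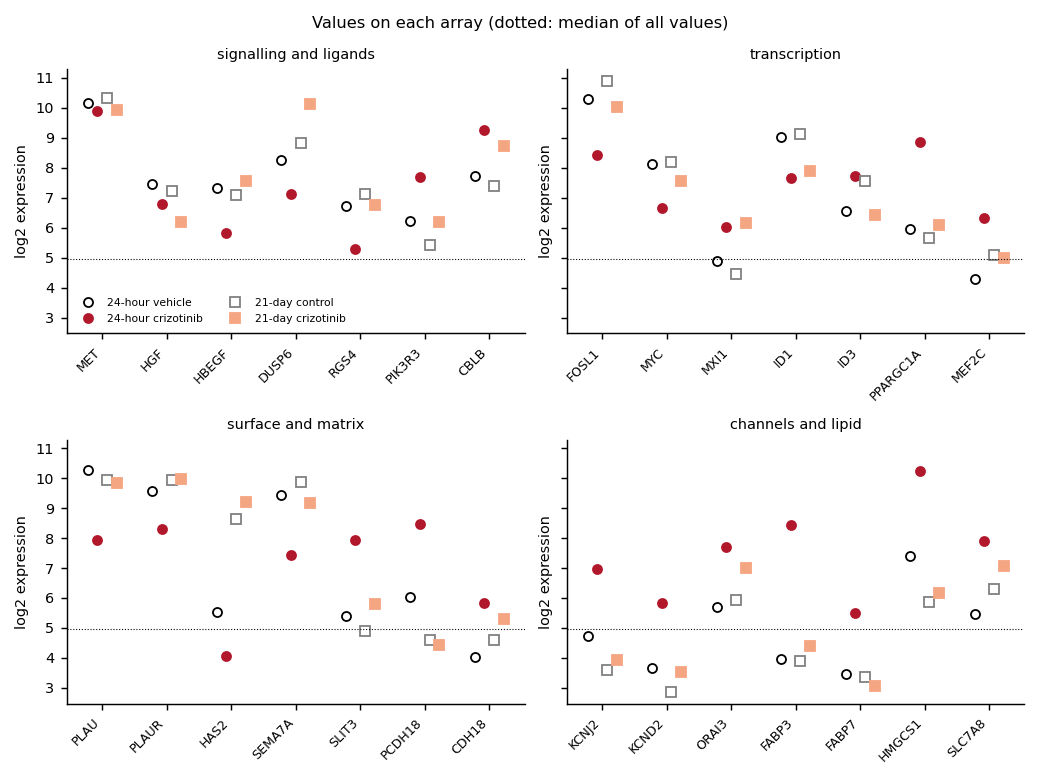
Log2 expression on each of the 4 arrays (circles: 24-hour pair, squares: 21-day pair, filled: with crizotinib) for 28 genes in 4 groups, with the median of all values dotted. HBEGF, PLAU and FOSL1 are lowest on the 24-hour crizotinib array, and FABP3, PPARGC1A and HMGCS1 highest there.

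Among transcription factors, the MYC, MAX and MXD network had 6 of 7 above 0 and a median of 0.30, or 0.07 over all 10. Immediate early genes of the EGR, NR4A, IER and SRF kind had 7 of 9 below 0 and a median of -0.26. The only members counted were IER5L and NR4A2, higher by 1.14 and 1.57. Basic helix-loop-helix factors had a median of 0.28 over 18, or 0.01 over all 49 measured. FOSL1, an AP-1 partner that ERK stabilises, was 10.29 with vehicle, 8.42 with crizotinib and 10.89 and 10.04 in the 21-day cultures. JUN was lower by 1.05. MYC, which drives growth and ribosome genes, was 8.13 with vehicle and 6.66 with crizotinib. Its antagonist MXI1 was 4.88 and 6.03, so that the 2 lay in opposite directions. In the ID family, inhibitors of basic helix-loop-helix factors, ID1 was lower by 1.37 and ID3 higher by 1.19. Between the arrays without drug ID3 differed by 1.02 and ID1 by 0.10.

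Of 38 nuclear receptors 25 were past the filter, and 3 of these were counted as higher and none as lower, where 2.87% of all genes past it were higher. These were NR4A2 by 1.57, NR3C2, the mineralocorticoid receptor, by 1.39, and RORB by 1.28, and each passed the filter only on the crizotinib array. PPARGC1A, a coactivator of nuclear receptors that drives mitochondrial gene expression, was 5.97 with vehicle, 8.85 with crizotinib and 5.64 and 6.10 in the 21-day cultures. It was by far highest on the 24-hour crizotinib array. The median was 0.07 for 42 complex I genes, -0.03 for 47 genes of complexes II to V and 0.07 for 38 genes of fatty acid oxidation and peroxisomes. No member of these was past 2-fold. Mitochondrial ribosomal proteins had a median of -0.24 over 75, and mitochondrial import and assembly genes one of -0.22 over 39, with TIMM13 counted as lower. A link between PPARGC1A and these families was not tested. MEF2C, a factor of muscle and neuronal differentiation, was 4.28 with vehicle and 6.32 with crizotinib, against 5.08 and 4.99 in the 21-day cultures. The forkhead factor FOXN3 was 1.42 higher.

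The ETS factor ETV4, a target of ERK signals, was lower by 1.11. ELF5, of the same family, was 4.55 with vehicle and 5.88 with crizotinib. KLF2 was lower by 1.13, and BMAL2, a clock factor, by 1.26. The largest factor family, 536 ZNF zinc finger genes, had a median of 0.03 over 262 expressed members, with 137 above and 125 below 0. Of its 276 genes past the filter 7 were counted as higher and 3 as lower, where 2.87% and 2.13% of all genes past it were. ZNF175 was 8.59 with vehicle, 6.65 with crizotinib and 8.31 and 8.49 in the 21-day cultures. The 29 HOX genes had none past 2-fold.

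Replication, histone, kinetochore and recombination genes held the lowest medians among families with at least 5 expressed members. Cyclins, at -0.15 over 20, and cyclin-dependent kinases with CDC25, at -0.01 over 23, lay nearer 0. Of 36 genes of origin licensing and the replication fork 35 were past the filter. Of these 20 were counted as lower and none as higher, where 2.13% of all genes past it were lower. In this family 32 of 35 expressed members were below 0, with a median of -1.08. GINS2 was 7.29 with vehicle, 5.17 with crizotinib and 7.70 and 5.70 in the 21-day cultures, so both drug cultures lay below both controls. The kinetochore family had 11 of 38 genes past the filter counted as lower and a median of -0.81. Fanconi anaemia and homologous recombination genes had 7 of 25 counted in this way and a median of -0.59, led by the nuclease EXO1 at -1.81. Cohesin and condensin genes, with 2 of 24, had a median of -0.42.

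Other repair genes differed less. The 48 expressed genes of mismatch, excision and end-joining repair had a median of -0.12 and none past 2-fold. Of 71 histone genes 44 were past the filter and 20 of these were counted as lower, where 2.13% of all genes past it were. The median was -0.87 over 39 expressed histone genes. Many are near-identical copies, so probes may not separate them. H2AC4 was 6.30 with vehicle and 3.85 with crizotinib. The enzymes that modify histones stayed near 0, at 0.06 for 57 lysine methyltransferases and demethylases and 0.02 for 29 acetyltransferases, deacetylases and sirtuins.

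Among regulators of the cycle the differences went both ways. CDC25A, the phosphatase that activates CDK2, was 6.76 with vehicle and 5.11 with crizotinib. CCNE2, CCNA2 and CCND1 were lower by 1.37, 1.22 and 1.19. CCND1, the cyclin of growth factor signals, was 9.59 with crizotinib at 24 hours but 11.37 in the 21-day drug culture. CCNG2, a cyclin linked to arrest, was 5.83 with vehicle and 7.99 with crizotinib. LMNB1, a lamin of the nuclear envelope that is lost in senescent cells, was 8.46 with vehicle, 6.84 with crizotinib and 8.51 and 5.43 in the 21-day cultures.

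In most gene families of RNA production and protein synthesis the median lay below 0 by a small amount. Of 71 expressed ribosome biogenesis factors 66 were below 0, with a median of -0.45. Of its members 5 were counted as lower, led by NOC2L, which was 6.38 with vehicle, 4.94 with crizotinib and 6.86 and 6.10 in the 21-day cultures. BOP1 and NOP56, which process ribosomal RNA, were lower by 1.23 and 1.09. Cytosolic ribosomal proteins had 43 of 48 below 0 and a median of -0.35, and mitochondrial ones 63 of 75 and -0.24, with no member of either past 2-fold. RNA polymerase subunits had a median of -0.32, and Mediator, TFIID and TFIIH genes one of 0.00 over 69.

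Small negative medians were also found in tRNA synthetases, with 30 of 35 below 0 and a median of -0.24, in translation factors, at -0.18, and in splicing factors, with 48 of 61 below 0 and -0.28. The exosome subunit EXOSC2, part of the complex that degrades RNA, was 8.75 with vehicle and 7.28 with crizotinib. HNRNPAB and the spliceosome protein SNRPF were lower by 1.11 and 1.15. Importins, exportins and nucleoporins had 40 of 51 below 0 and a median of -0.32. Between the arrays without drug these families had medians from 0.00 to 0.14, and a single difference of this size lies within the spread of the drug-free arrays.

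Many genes of enzymes that supply nucleotides and polyamines were lower too. Of 60 purine and pyrimidine genes 52 were past the filter, and 5 of these were counted as lower and 1 as higher. The family median was -0.38. RRM2, the ribonucleotide reductase subunit of S phase, was 10.42 with vehicle and 8.93 with crizotinib, and CTPS1, which makes CTP, was 9.03 and 7.82. ODC1, the first enzyme of polyamine synthesis, was 10.00 with vehicle, 8.45 with crizotinib and 10.28 and 9.67 in the 21-day cultures. SLC19A1, the reduced folate carrier, was lower by 1.07. In the same group as ODC1, CTH, which makes cysteine, was 4.23 with vehicle and 5.47 with crizotinib.

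Families of protein folding and breakdown differed less. The chaperonin TRiC and prefoldin had a median of -0.35 over 14 and the proteasome one of -0.23 over 42, both with no gene past 2-fold. Heat shock proteins had a median of -0.12 over 29, with 21 below 0. Folding genes of the endoplasmic reticulum, at -0.09 over 31, and deubiquitinases, at -0.02 over 51, lay near 0. Single ubiquitin ligase parts stood out. FBXO32, the F-box protein of muscle atrophy, was 7.14 with vehicle, 9.54 with crizotinib and 8.03 and 8.99 in the 21-day cultures. KLHL24, a cullin adaptor that acts on keratins, was 5.20 with vehicle and 7.75 with crizotinib, and 5.58 and 7.16 in the 21-day cultures. UBE2C, which drives mitotic exit, was lower by 1.44.

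Sterol synthesis had the highest family median. Of 19 mevalonate and sterol synthesis genes 18 were past the filter. Of these 12 were counted as higher and none as lower, where 2.87% of all genes past it were higher. The family median was 1.53, and the drug-free arrays had a median of -0.64 in the same genes. HMGCS1 was 7.40 with vehicle, 10.23 with crizotinib and 5.86 and 6.17 in the 21-day cultures. PMVK, a kinase of the same pathway, was lower by 0.80. Fatty acid synthesis, with 18 of 19 above 0, had a median of 0.55, or 0.24 over all 26 measured. FADS2, a desaturase, was 8.11 with vehicle and 9.85 with crizotinib, and 7.02 and 6.81 in the 21-day cultures. Phospholipid synthesis had a median of only 0.09, but PCYT2, which makes CDP-ethanolamine, was 1.45 and LPIN1, a phosphatidate phosphatase, 1.34 higher.

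Carriers of fatty acids within the cell held the largest difference of all 11897 genes. FABP3, the heart type fatty acid binding protein, was 3.96 with vehicle, 8.42 with crizotinib and 3.91 and 4.40 in the 21-day cultures. FABP7, the brain type, was 3.45 with vehicle, 5.50 with crizotinib and 3.36 and 3.07 in the 21-day cultures. FABP3 and FABP7 passed the filter only on the crizotinib array. Over all 20 expressed fatty acid binding, uptake and droplet genes, FABP3 included, the median was 0.01, with 10 above and 10 below 0. Flippases, which turn phospholipids between the leaflets of a membrane, had 7 of 8 above 0 and a median of 0.44, with ATP8A1 at 1.49 and ATP9A at 1.06. Phospholipases had 19 of 25 above 0 and a median of 0.33, or 0.06 over all 54 measured, and PLD1 was highest at 1.36.

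Among genes of detoxification, HMOX1, the enzyme that degrades haem, was 9.10 with vehicle and 10.69 with crizotinib, and GSTA4, a glutathione transferase of lipid aldehydes, was 1.36 higher. The median of 50 glutathione, thioredoxin and peroxide genes was -0.06. Cytochrome P450 genes had a median of 0.26 over 13 expressed members, or -0.03 over all 52 measured. Of 14 past the filter 3 were counted as higher, where 2.87% of all genes past it were. Among them was CYP17A1, a steroid hydroxylase, from 3.38 to 5.46. CYP1B1 was 1.45 higher, but the 21-day control lay as far above the vehicle, by 1.48. Aldehyde and ketone reductases and dehydrogenases had 20 of 29 above 0 and a median of 0.22, with AKR1C3 and AKR1B10 higher by 1.19 and 1.18. None of 26 UDP-glucuronosyl and sulfotransferases was past the level filter.

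Many genes of endosomes and lysosomes were higher by small amounts. Lysosomal hydrolases and membrane proteins had 30 of 38 above 0 and a median of 0.25, cathepsins 11 of 13 and 0.46. CTSK, a collagen-cleaving cathepsin, was 8.36 with vehicle and 9.71 with crizotinib, and GPNMB, a lysosomal glycoprotein, was 8.16 and 10.27. Endosomal sorting genes had 57 of 78 above 0 and a median of 0.27. EEA1, the tether of early endosomes, was 8.13 with vehicle, 9.37 with crizotinib and 8.06 on both 21-day arrays. SNX9 and RUFY3 were 1.13 and 1.05 higher. The TBC1D family, which switches off RAB GTPases, had a median of 0.34 with TBC1D8B at 1.26 and TBC1D4 at 1.03, while the 45 expressed RAB GTPases had one of 0.07.

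The proton pump of these compartments had 15 of 18 subunits above 0 and a median of 0.28. ATP6V0D2 was 4.06 with vehicle, 6.54 with crizotinib, 6.02 in the 21-day control and 7.77 in the 21-day drug culture, so the drug-free arrays differed by almost as much. Autophagy genes had 30 of 42 above 0, a median of 0.18 and WIPI1 at 1.09. Coats of the clathrin type, at 0.03 over 44, lay near 0.

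Transporters differed by subtype. Glucose and hexose carriers had 5 of 6 above 0 and a median of 0.71, but 0.05 over all 13 measured, and only SLC2A12, from 3.83 to 5.07, passed 2-fold. The main glucose carrier SLC2A1 was 8.50 with vehicle and 8.55 with crizotinib. Amino acid carriers had a median of 0.10 over 27, with members at both ends. SLC7A8, a carrier of neutral amino acids, was 5.47 with vehicle, 7.89 with crizotinib and 6.30 and 7.07 in the 21-day cultures. SLC7A5, which carries large neutral amino acids in growing cells, was 8.20, 7.34, 9.22 and 8.06 in that order. SLC9A9, an endosomal proton exchanger, was 1.65 higher. Zinc carriers, at 0.04 over 18, mitochondrial carriers, at -0.10 over 37, and ABC transporters, at 0.03 over 20, lay near 0.

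Ion channels of excitable cells were among the genes with the largest differences. Of 90 potassium channel genes 24 were past the filter, and 4 of these were counted as higher and none as lower, where 2.87% of all genes past it were higher. Their median was 0.14 with 13 above and 9 below 0, and that of ligand-gated channels -0.05. KCNJ2, KCND2 and SCN3A passed the filter only on the crizotinib array. KCNJ2, an inward rectifier, was 4.72 with vehicle, 6.96 with crizotinib and 3.60 and 3.93 in the 21-day cultures. KCND2, a channel of the A-type current, was 3.66 with vehicle, 5.82 with crizotinib and 2.87 and 3.54 in the 21-day cultures. KCNE4, an accessory subunit, was 1.80 higher. The sodium channels SCN3A and SCN9A were also counted as higher.

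ORAI3, a store-operated calcium channel, was 5.70 with vehicle, 7.70 with crizotinib and 5.93 in the 21-day control. GABRA2, a subunit of the GABA receptor, was 5.47 with vehicle and 7.48 with crizotinib, but 3.39 in the 21-day control. Its arrays without drug lay 2.08 apart, as far as the 24-hour pair. LRRC8C, a subunit of the volume-regulated anion channel, was lower by 1.07.

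At the cell surface the protocadherins, adhesion proteins best known from neurons, lay on 1 side. All 19 expressed members were above 0, with a median of 0.70 against -0.34 between the arrays without drug. Of 66 measured, 25 were past the filter and 5 of these were counted as higher, where 2.87% of all genes past it were. PCDHB8 and PCDHB6 passed it only on the crizotinib array. PCDH18 was 6.04 with vehicle, 8.47 with crizotinib and 4.59 and 4.44 in the 21-day cultures. PCDH7 was 5.66, 7.67, 5.77 and 5.73 in that order. Genes of the clustered subfamilies share exons or near-identical sequence, so their features are not independent. Of 37 cadherins 10 were past the filter and 3 were counted as higher, with CDH18 at 1.81 and CDH7 at 1.54. CDH18 was 4.03 with vehicle and passed only on the crizotinib array. Of 26 integrins 14 were past the filter, and ITGB8 at 1.20 and ITGA4 at 1.03 were counted as higher.

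Guidance factors held large differences in both directions. SLIT3, a secreted repellent that binds ROBO receptors, was 5.40 with vehicle, 7.94 with crizotinib and 4.89 and 5.81 in the 21-day cultures. SEMA6D was 4.51 with vehicle and 5.94 with crizotinib. SEMA7A, a semaphorin that binds integrins, was 9.44 with vehicle, 7.44 with crizotinib and 9.87 and 9.19 in the 21-day cultures. RGMB, a coreceptor of bone morphogenetic proteins, was lower by 1.04.

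Among genes of plasminogen activation and coagulation 1 of 14 past the filter was counted as higher, PROS1 at 1.00, and 2 as lower. PLAU, the urokinase that activates plasminogen, was 10.26 with vehicle, 7.94 with crizotinib and 9.94 and 9.85 in the 21-day cultures. Its receptor PLAUR was 9.56, 8.32, 9.93 and 9.97 in that order. Both were lowest on the 24-hour crizotinib array and close together on the rest. Matrix metalloproteases and TIMPs had none past 2-fold and a median of 0.18 over 12. ADAMTS1, a protease of proteoglycans, was lower by 1.13.

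Matrix families differed from each other. None of 43 collagens passed 2-fold, and their median was -0.12. Laminins, nidogens and perlecan had a median of 0.24 over 10. Small leucine-rich and hyaluronan proteoglycans had one of -0.52 with 6 of 7 below 0, or -0.21 over all 20 measured. However, LUM, a collagen-binding proteoglycan of this family, was 1.30 higher. HAS2, which makes hyaluronan, was 5.52 with vehicle and 4.06 with crizotinib, but 8.64 and 9.21 in the 21-day cultures. EFEMP1, a fibulin, was 7.22 with vehicle and 9.23 with crizotinib, but 4.16 and 4.12 in the 21-day cultures. In both, the drug-free arrays differed by more than the 24-hour pair. The syndecan SDC4 was lower by 1.08.

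In the cytoskeleton TUBA1A, a neuronal alpha-tubulin, was 5.11 with vehicle and 6.76 with crizotinib, while the median of 20 expressed tubulins was -0.19. TMOD1, which caps actin filaments, was 1.69 higher. The kinesins KIF18B, KIF2C and KIF22, all of mitosis, were lower by 1.23, 1.17 and 1.05, and no other kinesin past the filter passed 2-fold. Keratin KRT80 was lower by 1.39.

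Immune families had medians on both sides of 0. HLA and antigen processing genes had 12 above and 12 below 0 and a median of -0.02, against -0.51 between the arrays without drug. Chemokines, at -0.05 over 9, had none past 2-fold. Interferon-induced genes had 13 of 20 above 0 and a median of 0.27. Complement genes and pentraxins had one of 0.22 over 15, or -0.03 over all 41 measured. Of the interferon-induced genes MX2 and IFIT1 were counted as higher, at 1.77 and 1.86, while IFI44L was lower by 0.54. MX2 was 3.80 and IFIT1 3.41 with vehicle, so both passed the filter only on the crizotinib array. TNFRSF12A, the receptor of TWEAK, was 9.82 with vehicle, 8.01 with crizotinib and 10.04 and 10.03 in the 21-day cultures. IL1RN, which blocks the interleukin 1 receptor, was 4.26 with vehicle and 5.77 with crizotinib. In the BCL2 family 12 of 14 were below 0, with a median of -0.26 and MCL1, a protector from apoptosis, lowest at -0.93. The arrays without drug had a median of -0.22 in the same genes.

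Several genes outside these families were among the 30 with the highest differences. PRUNE2 was 5.39 with vehicle and 8.06 with crizotinib, and TCP11L2 was 4.18 and 6.81. FAXDC2, of the fatty acid hydroxylase family, was 6.23 with vehicle, 8.82 with crizotinib and 5.77 and 6.11 in the 21-day cultures. PLXDC1 and PLXDC2, receptors of a pigment epithelium factor, were 2.30 and 2.24 higher, but the drug-free arrays lay 3.33 apart for PLXDC2. CHI3L1, a secreted glycoprotein of mesenchymal glioma, was 7.91 with vehicle, 10.05 with crizotinib, 7.38 in the 21-day control and 10.56 in the 21-day drug culture. It was high on both arrays with drug.

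Noncoding RNAs were measured as precursors or host transcripts. Of 336 small nucleolar and Cajal body RNAs 161 were past the filter. Of these 21 were counted as lower and 3 as higher, where 2.13% and 2.87% of all genes past it were. Of 153 expressed RNAs of this class 122 were below 0. Their median was -0.46, but between the arrays without drug it was 0.59, so this class varies widely without drug. SNORD12C was 7.92 with vehicle and 5.58 with crizotinib, and SNORD12 6.95 and 5.25. Both lie within ZFAS1, their host transcript, which was lower by 1.42. SNORD49A and SNORD49B, lower by 1.79 and 2.10, lie in SNHG29, which was lower by 0.60. C10orf55, lower by 2.29, overlaps PLAU, lower by 2.31, and PCNA-AS1, lower by 1.05, overlaps PCNA at the same difference. Other pairs differed from each other. SNAI3-AS1 was higher by 2.60 and SNAI3 by 0.15, while SNORD43 was lower by 1.09 and its host RPL3 by 0.03. The RPL3 feature was only 3.41 with vehicle and 3.37 with crizotinib, below the median of all values, so this pair cannot be compared. SNORD5 was lower by 1.11 and TAF1D by 0.23. These pairs were chosen after their values were seen, and a feature can share transcript sequence with the gene it overlaps.

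Of 1098 microRNA features 222 were past the filter, and 4 of these were higher and 3 lower, where 4.99% of all genes past it were counted. Of 183 expressed, 138 were below 0, with a median of -0.16, and the arrays without drug had one of -0.27. The mature sequences of 3 of the higher ones are shown because MIR218-2 lies within SLIT3, MIR222 has a partner of the same seed and MIR4500 shares its seed with let-7. They are from RefSeq, with the seed, bases 2 to 8, in capitals, on the minus strand of GRCh38.p14 at chr5:168768211-168768231, chrX:45747036-45747056 and chr13:87618671-87618687.
hsa-miR-218-5p: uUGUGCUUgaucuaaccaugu
hsa-miR-222-3p: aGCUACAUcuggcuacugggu
hsa-miR-4500: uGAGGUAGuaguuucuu
MIR218-2 was 3.44 with vehicle, 5.23 with crizotinib and 3.67 and 2.80 in the 21-day cultures, higher on the same array as its host SLIT3. MIR218-1, which gives the same 5p sequence from within SLIT2, was 4.48 and 4.38, and SLIT2 was 4.64 and 4.70. MIR222 was 5.97 with vehicle and 7.30 with crizotinib, and MIR221, whose 3p arm has the same seed, was 0.63 higher. MIR4500 was 1.93 with vehicle and 4.97 with crizotinib, the latter only just above the median of all values, and its seed is held by 11 mature microRNAs of the table. Its host MIR4500HG was 2.14 with vehicle and 2.16 with crizotinib.

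The difference was also set against gene length. In 10415 expressed coding genes the Spearman correlation of gene length with the 24-hour difference was 0.22, against -0.01 for the arrays without drug and 0.00 for the 21-day pair. It is across genes of the same 2 arrays, which are not independent. In the shortest of 10 groups of equal size, with a median length of 3.27 kb, the median difference was -0.09, and 22 genes were higher and 28 lower. In the longest, with a median of 247 kb, it was 0.23, and 50 genes (4.80%) were higher and 5 (0.480%) lower.

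Without the families of the cell cycle, repair, chromatin, RNA and mitochondria, 9214 genes remained, with a correlation of 0.20 and medians of -0.05 in the shortest and 0.23 in the longest group. Mean level did not run with the difference in the same way, at a correlation of -0.05 over all 10415 genes and -0.03 over the 9214. RNA integrity values were not used here, and their part in the relation was not tested.

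**Figure D5:**
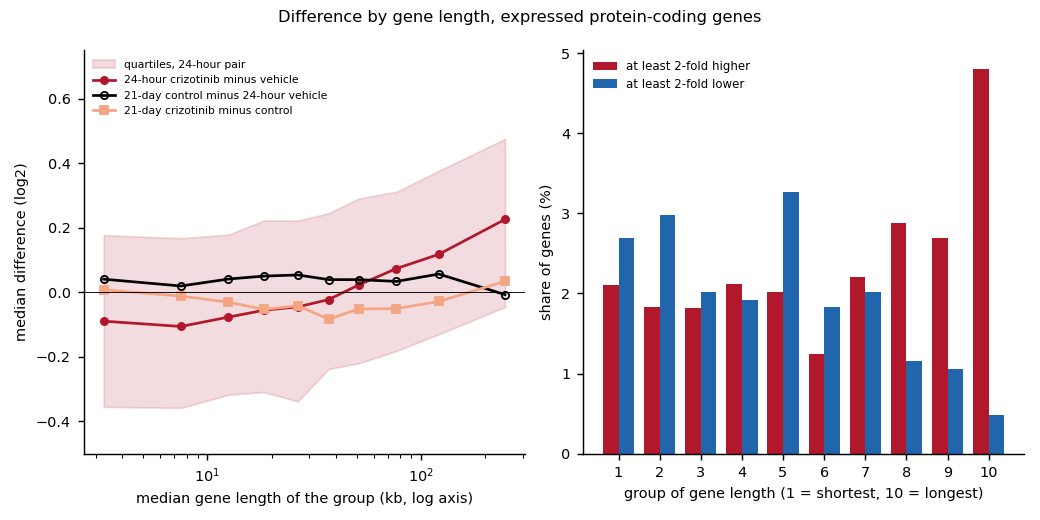
Left, median difference (log2) in 10 groups by gene length for 10415 expressed coding genes, with the quartiles of the 24-hour pair shaded; right, share of genes at least 2-fold higher or lower in the 24-hour pair, in percent. The 24-hour median goes from -0.09 in the shortest group to 0.23 in the longest, while the other comparisons stay within 0.09 of 0.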

How the data were processed

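The authors deposited log2 expression values for 23786 features, 1 per Entrez gene. RMA, affy 1.36.1 and R 2.15.1 are named in the submitters' processing notes. No scanner file was used here, nor any call of detection. Symbols came from the platform's gene table, with 1328 features unnamed, and biotype and gene length from RefSeq for GRCh38.p14. Per the labels, all RNA was extracted at the same time.

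Differences were taken between arrays with pandas and numpy in Python, with figures in matplotlib. A gene was counted when its arrays lay 2-fold or more apart and 1 of them reached 4.96, the median of all values. No test across genes was made. The rule was tested on simulated data. Families were defined by gene symbol, and all but noncoding ones hold coding genes only. Members and lists were chosen with earlier results of these data known. A list of 588 genes was set by rule, and the text names only part of it. It held the 30 highest and 30 lowest genes, cell type markers and the drug's targets. From each family it held up to 6 members past 2-fold each way and the extreme members. Other genes were named after their values were seen, such as SLC2A1, SLIT2, MIR218-1, MIR221 and overlapping transcripts. Alternatives were other level filters, other centring and other drug-free controls.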

Additional observations from a re-analysis of the deposited data

Results flagged for a closer look

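Of 217 genes at least 2-fold apart in both pairs and past the level filter in each, 9 lay in opposite directions, and 8 of these are named here because they follow the naming rule. With 1 array per condition the difference between the pairs was not tested, and the pairs differ in dose and time. ACAT2, which makes the acetoacetyl-CoA that enters sterol synthesis, was higher by 1.71 at 24 hours and lower by 1.16 at 21 days. AKR1B10, an aldo-keto reductase, differed by 1.18 and -1.08, and ANGPT1, a ligand of the endothelial receptor TIE2, by 1.04 and -1.20. ARHGAP28 differed by 1.14 and -1.01. CDK15 differed by 2.11 and -1.92, with 2.66 between the arrays without drug, and was only 2.90 on the 24-hour vehicle array. ID3 differed by 1.19 and -1.15. In the other direction, DUSP6 differed by -1.16 and 1.30, and SERPIND1, a thrombin inhibitor, by -1.43 and 1.19.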

How the results depend on the processing

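The count of higher genes, 341, was between 258 and 454 under the alternatives, and that of lower genes, 253, between 206 and 363. The lowest counts came from the requirement of 2-fold against each array without drug, added after the data were seen, and, for higher genes alike, from a level of 6. The highest came from the mean of both arrays without drug as control. Subtracting the median difference moved no family or named gene by more than the spread of the drug-free arrays, 0.31. That median was 0.00 over expressed genes, so this alternative could not move a value by that much. With the mean control, 141 of 588 named differences and 6 of 194 family medians moved by more than that spread. How far a gene moves there depends only on the distance between its drug-free arrays. With all measured members in place of expressed ones, which adds features at low level, 5 family medians moved and that of voltage-gated sodium and calcium channels turned from 0.43 to -0.05 (-0.0511 before rounding). No paired analysis was possible because there is 1 array per condition. Without calls of detection no feature can be called absent, and values near the median of all values rest on the least signal.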
